A study of Homo sapiens with 26 samples.

Results

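The 54 genes described here encode the machinery that copies DNA and the factors that cells make as they enter and pass through S phase. They were taken from a list of gene symbols, matched through their Ensembl identifiers to the gene count tables of 3 cell lines, and mitotic genes were kept apart. All 54 were found in every table, out of 62778 identifiers over the 3 tables together, and all 54 passed the filter on low counts in each line. The rule that picks them uses no measured value, although the list was chosen with earlier results of these data known.

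The study measured poly(A) RNA by paired-end sequencing in 26 libraries from 3 established human lines of pancreatic ductal adenocarcinoma, in which the transcription factor HNF4α was either induced or repressed. HNF4A, its gene, has a pair of promoters named P1 and P2, whose transcripts give isoforms that differ at the amino end. Panc10.05 and BxPC3 carried constructs induced with doxycycline, each with 2 libraries of the P1 isoform (labelled P1-a2), 2 of the P2 isoform (P2-a8) and 2 of a negative control (NC). The line written ASPC1 in the labels (AsPC-1) was given CRISPRi, which blocks transcription at a site chosen by a guide RNA, against the P1 isoforms, the P2 isoforms or both. The Panc10.05 P1-a2 and NC cells received 25 ng/mL doxycycline and the P2-a8 cells 12.5 ng/mL, whereas all BxPC3 cells received 500 ng/mL. The titles give the Panc10.05 control as GFP and the BxPC3 control as EV, and every control received doxycycline as well. In ASPC1, guides sgP1E and sgP1J were labelled sgP1, guides sgP2D and sgP2G sgP2, and guides sgDual2 and sgDual3 sgDual. Each guide had 2 libraries, which gives 4 per target, and the control sgNC had 2 libraries. The labels do not say whether libraries came from separate cultures, so the p-values measure the spread between these libraries, which may be technical.

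Replication is prepared in G1, when the origin recognition complex, CDC6 and CDT1 load the ring-shaped MCM2-7 helicase onto DNA. In S phase the helicase is switched on by CDC45 and the GINS complex, and polymerases, the sliding clamp PCNA and its loaders, a nucleotide supply and chromatin assembly factors follow. Many of the genes are transcribed by E2F factors, which are held back by the retinoblastoma protein and released by cyclin-dependent kinases, whereas mitotic genes are commonly controlled through another promoter element, the CHR, and peak later in the cycle. Loss of the kinase inhibitor gene CDKN2A is common in pancreatic cancer, and levels of these genes are a customary readout of cycling cells. In bulk RNA, fewer cells in S phase and less RNA per cell cannot be told apart.

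The promoters of 8 genes that the results return to are shown here because they hold E2F or CHR letters. These letters differ in frequency between replication and mitotic genes but do not separate the lists gene by gene. Each is a stretch of the RefSeq promoter table (GRCh38.p14), written 5′ to 3′ on the strand of the gene, and capitals mark matches to an 8-letter E2F motif, except in ASF1B, where they mark the CHR. The stretches are CDT1 at chr16:88803689-88803788 on the plus strand, MCM6 at chr2:135876444-135876603 on the minus strand, GINS2 at chr16:85688955-85689054 on the minus strand, CDCA7 at chr2:173354772-173354871 on the plus strand, HELLS at chr10:94545688-94545787 on the plus strand, E2F1 at chr20:33686386-33686485 on the minus strand, E2F2 at chr1:23531234-23531333 on the minus strand and ASF1B at chr19:14136590-14136689 on the minus strand.
CDT1: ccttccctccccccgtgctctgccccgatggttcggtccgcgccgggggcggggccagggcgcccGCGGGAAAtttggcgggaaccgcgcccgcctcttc
MCM6: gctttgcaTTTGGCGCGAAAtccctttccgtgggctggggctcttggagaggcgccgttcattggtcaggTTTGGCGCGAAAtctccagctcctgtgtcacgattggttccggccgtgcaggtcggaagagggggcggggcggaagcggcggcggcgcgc
GINS2: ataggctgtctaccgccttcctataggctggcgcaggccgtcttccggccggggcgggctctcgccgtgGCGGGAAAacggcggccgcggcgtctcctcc
CDCA7: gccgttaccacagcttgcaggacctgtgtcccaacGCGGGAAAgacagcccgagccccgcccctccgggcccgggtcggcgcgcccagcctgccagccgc
HELLS: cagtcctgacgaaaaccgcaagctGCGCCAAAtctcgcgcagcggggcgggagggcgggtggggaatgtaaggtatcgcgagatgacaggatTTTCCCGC
E2F1: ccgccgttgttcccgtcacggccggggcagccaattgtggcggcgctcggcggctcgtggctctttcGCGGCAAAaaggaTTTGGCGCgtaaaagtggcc
E2F2: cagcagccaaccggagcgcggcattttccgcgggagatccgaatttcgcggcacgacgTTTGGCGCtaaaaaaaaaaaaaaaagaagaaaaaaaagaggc
ASF1B: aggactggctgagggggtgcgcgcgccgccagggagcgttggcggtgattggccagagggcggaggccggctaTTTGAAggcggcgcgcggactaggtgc

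MCM6 holds 2 copies of a 12-letter stretch in which a pair of E2F matches on opposite strands overlap, which gives 4 matches. The E2F motif was searched as TTTCCCGC, TTTGGCGC, TTTCGCGC and TTTGCCGC on both strands of each 300-base window, from 250 bases before to 50 after the start. Of the 54 genes, 47 had a window in the table, and they had 60 windows. At least 1 match was present in 45% of the windows of replication genes (27 of 60), in 6.94% of those of the mitotic genes (5 of 72) and in 3.31% of all 35116 windows. With the leading T of each left off, which gives 7-letter motifs contained in the longer ones, the shares were 68.3%, 31.9% and 13%. The CHR letters TTTGAA and TTCGAA went the other way, with 5.0% of replication windows, 68.1% of mitotic windows and 16.4% of all windows. CCAAT, bound by NF-Y, was found in 56.7%, 68.1% and 34.6%. The HNF4 letters CAAAGTCCA and CAAAGGTCA were found in 1 of the 60 replication windows (1.67%), in none of the mitotic windows and in 0.792% of all windows. These matches describe letters in a fixed window and show no binding.

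The depth of a library was 34618745 counts at the lowest and 46827673 at the highest in Panc10.05, 26369154 and 37483772 in BxPC3, and 26079388 and 50662077 in ASPC1. The lowest count of any of the 54 genes in a library was 100, for E2F2 in Panc10.05. Levels are given as CPM, counts relative to the library's total scaled with edgeR's TMM factors, and a gene is called when the Benjamini-Hochberg adjusted p of edgeR's quasi-likelihood test, taken over all genes tested in that line, was under 0.05. HNF4A itself stood at 0.24 and 0.058 CPM in the Panc10.05 controls, 10.7 and 13 in P1-a2 and 37.6 in both P2-a8 libraries. In BxPC3 it stood at 1.08 and 0.464 CPM in NC, 9.76 and 11.6 in P1-a2 and 12.6 and 14.2 in P2-a8. In ASPC1 it stood at 206 and 220 CPM in sgNC and at 3.19 to 13.6 CPM in the 4 sgDual libraries, whereas the sgP1 libraries kept 109 to 146 CPM and the sgP2 libraries 76.7 to 93.9 CPM, neither of which passed the threshold against sgNC. Of the epithelial markers in ASPC1, EPCAM was at 299 to 694 CPM, KRT8 at 4210 to 9180, KRT18 at 1780 to 5270 and KRT19 at 1940 to 2860. CDH1 was at 13.3 to 77.3 CPM there. KRT7 was the exception, between 0.503 and 8.47 CPM in ASPC1 and at 961 CPM or more in the other lines. In ASPC1, 2 of 6 fibroblast markers were above 1 CPM, and their sum was 280 to 301 CPM in sgDual against 165 to 179 CPM in sgNC, nearly all of it LUM. The fibroblast markers COL1A1, COL1A2, DCN and PDGFRB were under 1 CPM in every ASPC1 library. COL3A1 stood at 1.07 and 1.03 CPM in sgDual3, 0.545 and 0.693 in sgDual2 and 0.127 and 0.193 in sgNC. Of the immune markers, PTPRC and CD3E were under 1 CPM there, and CD14 (1.43 to 3.47 CPM) and CD68 (3.15 to 6.06 CPM) were above it. The summed level of the immune list was 5.91 to 7.52 CPM in sgDual and 6.15 to 6.55 CPM in sgNC.

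Per kilobase of exon, the clamp PCNA was among the highest of the 54 genes in every control. It stood at 116 ± 2.83 CPM per kb in Panc10.05 (SD, n = 2), 222 ± 12 in BxPC3 (SD, n = 2) and 173 ± 19.0 in ASPC1 (SD, n = 2). The helicase subunit MCM7 was at 107 ± 2.22, 95.9 ± 6.2 and 93.6 ± 8.74 CPM per kb (SD, n = 2 each). Thymidine kinase TK1 was at 155 ± 2.59 CPM per kb in Panc10.05, above PCNA, and at 74.0 ± 5.14 and 62.7 ± 2.75 in BxPC3 and ASPC1. At the low end were E2F2 in Panc10.05 (1.65 ± 0.234 CPM per kb), the polymerase α subunit POLA2 in BxPC3 (3.0 CPM per kb) and GINS3 in ASPC1 (2.77 ± 0.606 CPM per kb). The annotated exons of 24 of the 54 genes overlap another gene, 9 of them on the same strand, and FEN1, PCNA, RFC3, RFC5, RPA2, RRM2 and TYMS have a pseudogene of their own name. Whether the authors' counts separated such reads is not given in the sources used here, and values of these genes carry that uncertainty.

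In Panc10.05, 40 of the 54 replication genes fell with the P1 isoform and 5 rose, relative to the GFP control. Over all genes tested, 30.5% were called lower and 31.5% higher. The median log2 fold change of the 54 genes was −0.40, against 0.02 over all genes. The falls ran through every role, from the MCM2-7 helicase (6 of 6 fell, median −0.28) to the helicase activators (5 of 6, −0.52), the polymerases and primase (6 of 7, −0.45) and the clamp, clamp loaders and lagging-strand enzymes (8 of 10 fell and 1 rose, −0.53). Among the E2F factors 3 of 4 fell, and among the fork protection genes 1 fell and 1 rose of 4. In 41 genes both P1-a2 libraries lay below both controls, where 38.9% of all genes did.

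**Figure D1:**
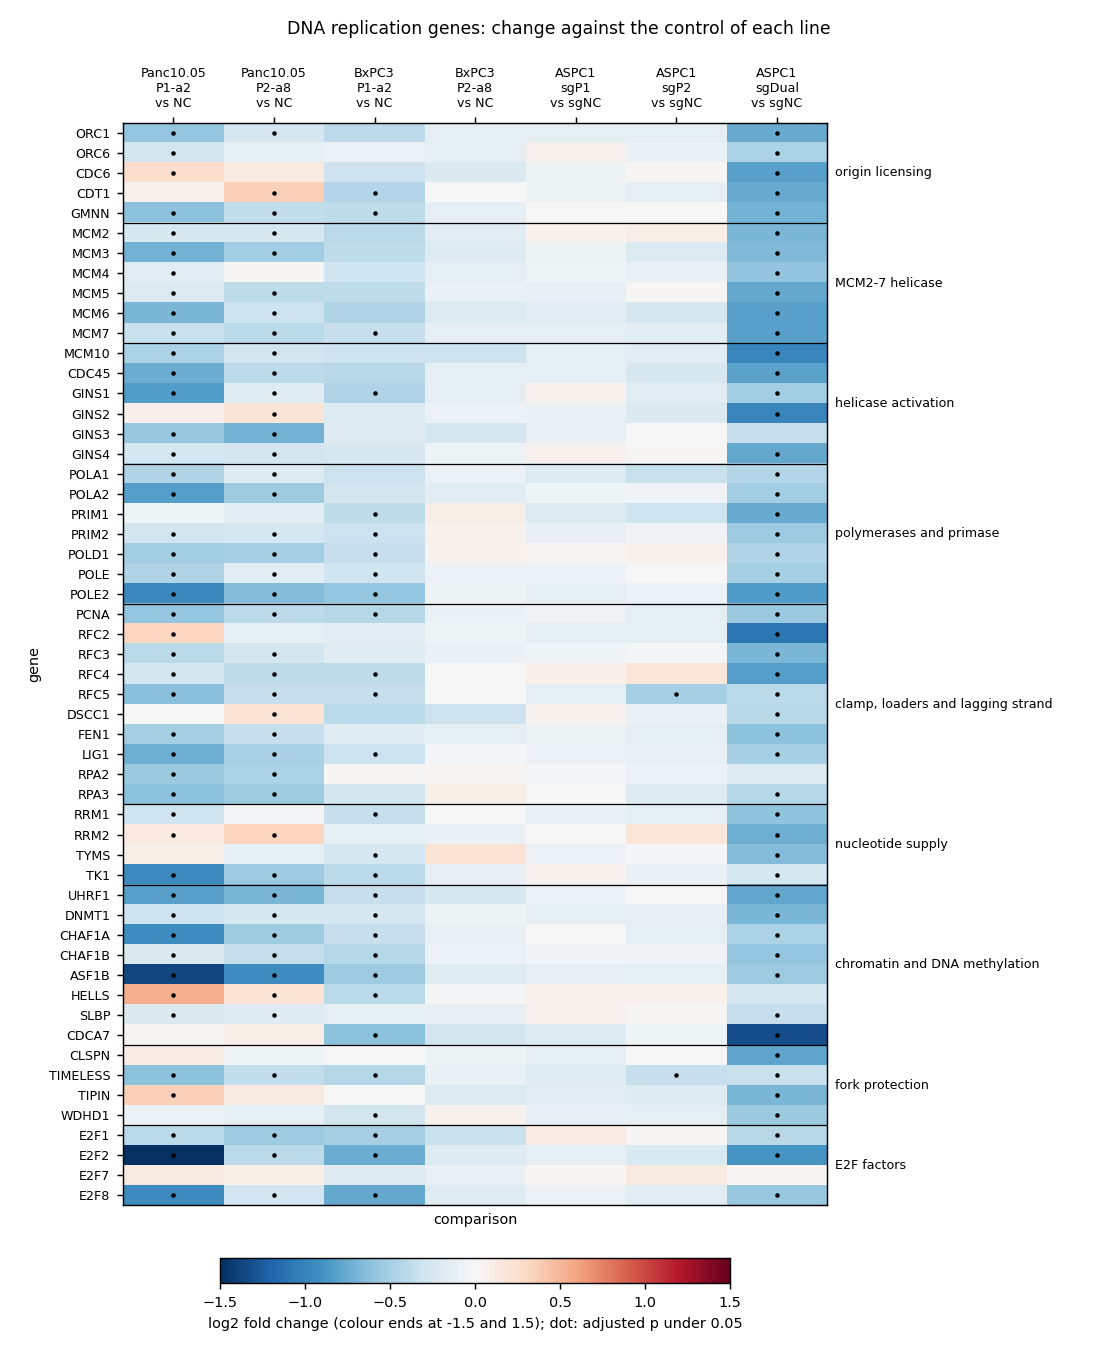
Log2 fold changes of the 54 genes (rows, grouped by role) in 7 comparisons with the control of the same line (columns); colour gives the log2 fold change, with the scale ending at −1.5 and 1.5, and a dot marks an adjusted p under 0.05. The P1-a2 column of Panc10.05 and the sgDual column of ASPC1 are mostly blue with dots, with 40 and 50 genes called lower, whereas the sgP1 column has no dot.

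The activator E2F2 moved farthest. It stood at 9.92 and 8.11 CPM in the Panc10.05 controls, 6.5 and 7.21 CPM in P2-a8 and 2.57 and 2.94 CPM in P1-a2, so that the 3 groups did not overlap. With P1-a2 it fell by 1.71 ± 0.15 on the log2 scale (edgeR's quasi-likelihood test, adjusted p = 1.41e-13). E2F1, the activator most closely tied to the retinoblastoma protein, stood at 67.6 and 69.5 CPM in the controls and at 52.7 and 50.7 in P1-a2, and fell by 0.41 ± 0.07 (adjusted p = 1.51e-06). E2F8, a repressor of E2F targets that is itself made in S phase, went from 27.8 and 26.7 CPM to 13.5 and 14.6 CPM, whereas the related repressor E2F7 had a log2 fold change of 0.13 and was not called.

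ASF1B, a chaperone that hands new histones to the assembly machinery (19: 14119509 to 14136956, minus strand, GRCh38), had the second largest fall. Its level was 105 and 118 CPM in the controls, 57.7 and 59.6 in P2-a8 and 43.1 and 43.3 in P1-a2, with no overlap between groups. The change with P1-a2 was −1.37 ± 0.07 (edgeR's quasi-likelihood test, adjusted p = 3.55e-21), and its exons overlap an opposite-strand gene, AC022098.3. Its partner, the large subunit of chromatin assembly factor CHAF1A, went from 114 and 104 CPM to 60.8 and 54.2 (log2 −0.93 ± 0.07), and UHRF1, which brings the maintenance methyltransferase to newly copied DNA, from 136 and 128 CPM to 79.4 and 69.7 (−0.82 ± 0.07). The methyltransferase DNMT1 fell less, with a log2 fold change of −0.31, and CHAF1B went from 26.5 and 25.8 CPM to 23.3 and 21.5 (−0.22 ± 0.08).

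At the origins and the helicase the falls were smaller and less even. ORC1, the largest origin recognition subunit, went from 54.6 and 45.9 CPM to 36.1 and 31.4 (−0.58 ± 0.08), and GMNN, which keeps CDT1 from reloading origins, had a log2 fold change of −0.62. MCM6 went from 98.5 and 88.1 CPM to 58.1 and 57.8 (−0.69 ± 0.07, edgeR's quasi-likelihood test, adjusted p = 9.24e-12) and MCM3 had nearly the same log2 fold change, −0.71. The other helicase subunits moved by a smaller amount, with log2 fold changes of −0.17 to −0.33, and MCM2 went from 300 and 284 CPM to 267 and 230. All 6 subunits were thus lower, but not in step with one another. Without P1-a2 replicate 2, 7 of the 45 calls were lost, namely ORC6 (log2 −0.18), MCM2 (−0.13), MCM4 (−0.11), MCM5 (−0.13), GINS4 (−0.22), CHAF1B (−0.17) and RRM2 (0.18).

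Of the helicase activators, CDC45 went from 36.0 and 35.2 CPM to 22.9 and 19.8 (−0.74 ± 0.08) and GINS1 from 42.2 and 39.5 to 23.2 and 22.5 (−0.84 ± 0.08). GINS2, another subunit of the same complex, was at 29.5 and 30.8 CPM in the controls and 31.3 and 32.4 in P1-a2 and was not called. The polymerase ε subunit POLE2 went from 14.5 and 14.8 CPM to 7.5 and 7.46 (−0.97 ± 0.11, edgeR's quasi-likelihood test, adjusted p = 1.86e-10), and POLA1, the catalytic subunit of the polymerase that makes primers, from 55.9 in both controls to 41.6 and 40.3 (−0.45 ± 0.07). PCNA went from 168 and 174 CPM to 118 and 111 (−0.58 ± 0.06), and FEN1, which trims Okazaki fragments, from 146 and 148 to 109 and 99.9 (−0.50 ± 0.06). TK1, which recycles thymidine, showed a log2 fold change of −0.96 ± 0.06, from 284 and 291 CPM to 154 and 142. No library of these called genes crossed into the other group.

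The 5 genes that rose with P1-a2 in Panc10.05 were HELLS, TIPIN, RFC2, CDC6 and RRM2. HELLS, a chromatin remodeller needed for DNA methylation, was at 36.0 and 36.3 CPM in the controls, 44.1 and 39.2 in P2-a8 and 55.8 and 50.2 in P1-a2, a log2 fold change of 0.55 ± 0.07 for P1-a2 (edgeR's quasi-likelihood test, adjusted p = 1.91e-08). RFC2, a clamp loader subunit (7: 74231499 to 74254458, minus strand, GRCh38), was at 74.2 and 75.6 CPM in the controls and 94.5 and 92.9 in P1-a2 (0.32 ± 0.06), whereas its partners RFC3, RFC4 and RFC5 fell (−0.40, −0.28 and −0.63). The origin loader CDC6 was at 51.1 and 50.7 CPM in the controls and 60.7 and 61.6 in P1-a2 (0.26 ± 0.07), and the fork protein TIPIN at 15.0 and 13.9 against 19.7 and 17.4 (0.36 ± 0.10). The ribonucleotide reductase subunit RRM2 was near the threshold, at 199 and 194 CPM against 223 and 214 (0.15 ± 0.06, adjusted p = 0.0415), and lost its call without any 1 of the 4 libraries (log2 0.12 to 0.18). CDT1, PRIM1, DSCC1, TYMS, CDCA7, CLSPN and WDHD1 were not called, with log2 fold changes from −0.09 to 0.11.

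**Figure D2:**
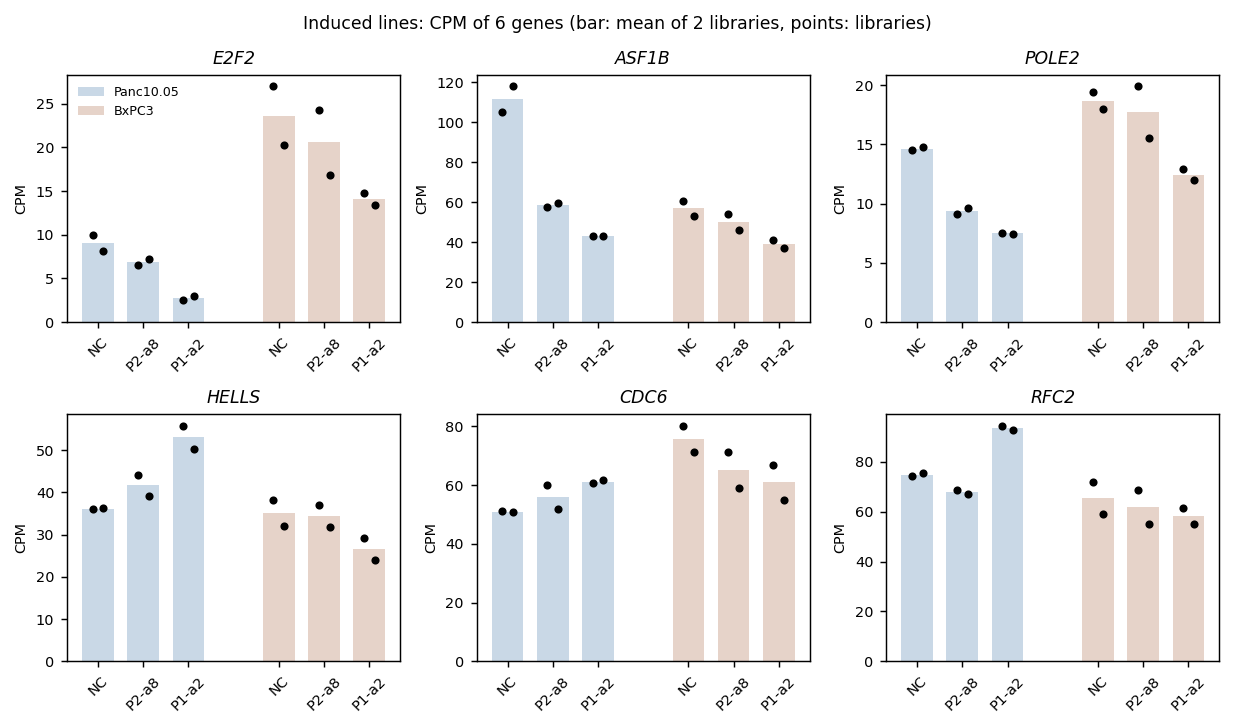
Levels (CPM) of 6 genes in the 6 libraries of Panc10.05 and the 6 of BxPC3, by group (NC, P2-a8, P1-a2), each point a library and each bar the mean of 2. ASF1B and POLE2 are lowest in P1-a2 of both lines, whereas HELLS and CDC6 are above the controls in P1-a2 of Panc10.05 and below them in P1-a2 of BxPC3.

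With the P2 isoform in Panc10.05, 37 of the 54 genes fell and 5 rose, where 22.5% of all genes were called lower and 23.7% higher. The median log2 fold change was −0.27. Both P2-a8 libraries lay below both controls in 42 genes, which was so for 35.1% of all genes. The largest falls were those of ASF1B (−0.93 ± 0.07), GINS3 and UHRF1. GINS3 went from 36.2 and 36.0 CPM to 22.1 and 22.2, a log2 fold change of −0.71 ± 0.08 (edgeR's quasi-likelihood test, adjusted p = 9.19e-10), and its exons overlap another gene. UHRF1 went to 83.0 and 80.7 CPM (−0.69 ± 0.07), POLE2 to 9.1 and 9.61 (−0.65 ± 0.11) and E2F1 to 48.7 and 45 (−0.55 ± 0.07). E2F2 was called lower (−0.41 ± 0.13), but not without NC replicate 1 (−0.24) or without P2-a8 replicate 1 (−0.32).

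The genes that rose with P2-a8 were CDT1, RRM2, HELLS, DSCC1 and GINS2. The licensing factor CDT1 was at 47.1 and 51.5 CPM in the controls and 64.5 and 61.6 in P2-a8 (0.36 ± 0.07, edgeR's quasi-likelihood test, adjusted p = 6.91e-05), and RRM2 at 267 and 228 CPM against 199 and 194 (0.33 ± 0.06). GINS2 was at 35.1 and 33.8 CPM (0.19 ± 0.08), and DSCC1, part of an alternative clamp loader, had a log2 fold change of 0.20. HELLS, DSCC1 and GINS2 lost their calls without NC replicate 1 (0.21, 0.21 and 0.17) or P2-a8 replicate 1 (0.12, 0.09 and 0.17), HELLS and DSCC1 also without NC replicate 2 (0.21 and 0.19) and GINS2 also without P2-a8 replicate 2 (0.23). CDC6, at 59.9 and 51.7 CPM, and RFC2, at 68.6 and 66.9 CPM, were not called in P2-a8. The comparisons of P1-a2 and P2-a8 share their control libraries, so their values are set side by side and were not correlated.

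Compared directly, P1-a2 was lower than P2-a8 in 26 genes and higher in 5, where 24.7% of all genes were called lower and 22.2% higher, and the median was −0.13. The differences were largest in E2F2 (−1.31 ± 0.15, edgeR's quasi-likelihood test, adjusted p = 1.27e-09), E2F8 (−0.67 ± 0.09) and GINS1 (−0.66 ± 0.08), none of whose libraries overlapped between the isoforms. RFC2 (0.47 ± 0.06), HELLS (0.35 ± 0.07), TYMS (0.23 ± 0.06), MCM5 (0.18) and CLSPN (0.17) were higher in P1-a2. TYMS, which makes thymidylate, stood at 118 and 105 CPM in P1-a2 and 93.6 and 96.2 in P2-a8, and the controls, at 101 and 108, overlapped with P1-a2. Without P1-a2 replicate 2 the count fell from 31 to 17. Leaving out P1-a2 replicate 1 ended the calls of TYMS (0.15), MCM5 (0.10) and CLSPN (0.08), and those of MCM5 (0.12) and CLSPN (0.12) were also lost without P2-a8 replicate 2, that of CLSPN also without P2-a8 replicate 1 (0.21). The isoforms were given different doxycycline doses and HNF4A differed in level between them, so isoform, dose and level cannot be told apart in this line.

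In fits without the replicate number as a block, BxPC3 gave fewer calls than Panc10.05. With that block it gave more calls than without it, as given in the last section. With the P1 isoform 28 of 54 genes fell and 0 rose, where 14.9% of all genes were called lower and 17.1% higher. The median was −0.34, against −0.01 over all genes. The log2 fold change was negative in 52 genes, and in 47 genes both P1-a2 libraries lay below both controls, as they did in 33.5% of all genes. The chromatin group led with 7 of 8 genes called lower (median −0.38), followed by the E2F factors with 3 of 4 (−0.62), the polymerases and primase with 5 of 7 (−0.32) and the nucleotide genes with 3 of 4 (−0.30). Of the MCM2-7 helicase 1 of 6 was called, although its median was −0.38. That subunit was MCM7, at 440 and 401 CPM in the controls and 350 and 314 in P1-a2 (−0.34 ± 0.08, edgeR's quasi-likelihood test, adjusted p = 0.00505). MCM6 stood at 91.7 and 80.7 CPM against 69 and 57.6, a log2 fold change of −0.45 with an adjusted p of 0.0512, and MCM2 at 232 and 196 CPM against 174 and 151.

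The genes that fell farthest in BxPC3 were E2F8, E2F2, CDCA7, POLE2 and ASF1B. E2F8 went from 18.7 and 17.9 CPM to 11.6 and 9.89 (−0.77 ± 0.16) and E2F2 from 27.0 and 20.3 to 14.8 and 13.4 (−0.74 ± 0.20, edgeR's quasi-likelihood test, adjusted p = 0.0223). CDCA7, which activates HELLS on nucleosomes, went from 34.9 and 33.4 CPM to 21.8 and 22.5 (−0.62 ± 0.11, adjusted p = 0.00132). POLE2 went from 19.4 and 18.0 CPM to 12.9 and 12 (−0.58 ± 0.12), and ASF1B from 60.6 and 53.1 to 40.9 and 37.3 (−0.54 ± 0.09). In each of these genes both P1-a2 libraries lay below both control libraries.

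CDT1, which was not called with P1-a2 in Panc10.05, went from 90.7 and 78.8 CPM to 63.7 and 60.9 in BxPC3 (−0.44 ± 0.08, edgeR's quasi-likelihood test, adjusted p = 0.00218). TIMELESS, which travels with the fork, went from 140 and 132 CPM to 104 and 98.6 (−0.43 ± 0.06, adjusted p = 0.000312). PCNA went from 340 and 315 CPM to 264 and 222 (−0.43 ± 0.11), E2F1 from 36.6 and 34.2 to 27.8 and 22.2 (−0.50), and HELLS from 38.2 and 32.1 to 29.2 and 23.9 (−0.41 ± 0.12). The controls of HELLS and of CDT1 did not overlap with P1-a2. CDC6 at 80.2 and 71.3 CPM against 66.9 and 55.0, RRM2 at 94.4 and 82.9 against 89.6 and 71.4, GINS2 at 31.2 and 26.4 against 27.2 and 22.8 and FEN1 at 100 and 98.1 against 96.1 and 79.0 were not called. The count of 28 dropped to 9 without NC replicate 1 and to 11 without P1-a2 replicate 2. Apart from a limit of 1.5-fold, under which fewer genes are called, the calls of ASF1B, CDCA7, CDT1, E2F8, GMNN, MCM7, POLE2, TIMELESS and TK1 held in every alternative run, whereas that of E2F2 was lost without NC replicate 1 (−0.54), P1-a2 replicate 1 (−0.81) or P1-a2 replicate 2 (−0.67), and those of E2F1 (−0.46 and −0.35), HELLS (−0.29 and −0.27) and PCNA (−0.38 and −0.31) without NC replicate 1 or P1-a2 replicate 2.

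With the P2 isoform in BxPC3, 0 of 54 genes passed the threshold in edgeR's quasi-likelihood test, where 2.69% of all genes were called lower and 4.3% higher, and 5 of the 54 had an unadjusted p under 0.05. The share of all genes with an unadjusted p under 0.05 is not given here, so that count describes the 54 genes only. DESeq2 also called 0, and edgeR without the filter on low counts called 5. A fit with the replicate number as a block, which the main fits do not carry, also called some, as given in the last section. The median log2 fold change was −0.11, against 0.01 over all genes, with 46 of the 54 genes negative. The lowest value was that of E2F1 (−0.33) and the highest that of TYMS (0.21), at 85.4 and 77.4 CPM in P2-a8 and 73.9 and 67.3 in NC. Both P2-a8 libraries lay below both controls in 10 genes, which was so for 22.7% of all genes. Without P2-a8 replicate 1 the count was 6.

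P1-a2 was lower than P2-a8 in 17 genes of BxPC3 and higher in 0, where 10.8% of all genes were called lower and 11.6% higher (median −0.24). E2F8 (−0.59 ± 0.16), POLE2 (−0.51 ± 0.12), TYMS, PRIM1 and CDT1 led. TYMS was at 62.4 and 55.2 CPM in P1-a2 and 85.4 and 77.4 in P2-a8 (−0.47 ± 0.08, edgeR's quasi-likelihood test, adjusted p = 0.00177), and PRIM1, the small primase subunit, had a log2 fold change of −0.47. CDT1 was at 63.7 and 60.9 CPM against 90.3 and 78.5 (−0.44 ± 0.08, adjusted p = 0.004). Apart from the 1.5-fold limit, the calls of CDT1, TYMS and TIMELESS held in every alternative run, and those of E2F8 (−0.46 and −0.29), POLE2 (−0.45 and −0.29) and PRIM1 (−0.37 and −0.28) were lost without P1-a2 replicate 2 or P2-a8 replicate 1. Without P2-a8 replicate 1 the count was 3, without P1-a2 replicate 2 it was 4 and without P2-a8 replicate 2 it was 28. Of the P2-a8 libraries, replicate 1 had 24 of the 54 genes below the control mean and replicate 2 had 52.

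The difference between the induced lines was tested in a fit of all 12 libraries. The P1-a2 effect was more negative in Panc10.05 for 9 genes and less negative or more positive for 7, where 20.1% of all genes differed in the first direction and 16.3% in the second. ASF1B (−0.82 ± 0.11, edgeR's quasi-likelihood test, adjusted p = 4.73e-06) and E2F2 (−0.96 ± 0.26) had the more negative effect in Panc10.05. HELLS differed most in the other direction (0.97 ± 0.15, adjusted p = 2.54e-05), as it rose in Panc10.05 and fell in BxPC3, followed by CDCA7 (0.66), CDC6 (0.59 ± 0.14), CDT1 (0.51) and RFC2 (0.49 ± 0.13). For P2-a8 against control 14 genes were more negative in Panc10.05 and 1 was higher (11.9% and 11.5% of all genes), and for P1-a2 against P2-a8 11 were higher and 0 lower in Panc10.05 (8.81% and 13.5%). Line, sequencing project, control construct and dose change together, so these cannot be told apart.

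In ASPC1, repression of both isoforms lowered nearly all of the 54 genes. Relative to sgNC, 50 fell and 0 rose with sgDual, where 17.8% of all genes were called lower and 17.8% higher, and the median was −0.61. The 4 sgDual libraries lay below both controls in 50 genes, as they did in 29.7% of all genes. Every role was included, with 5 of 5 licensing genes (median −0.76), 6 of 6 MCM2-7 subunits (−0.72), 5 of 6 helicase activators (−0.79), 7 of 7 polymerase and primase genes (−0.52), 9 of 10 clamp and lagging-strand genes (−0.53), 4 of 4 nucleotide genes (−0.63), 7 of 8 chromatin genes (−0.57), 4 of 4 fork protection genes (−0.62) and 3 of 4 E2F factors (−0.50). The 4 that were not called were E2F7 (0.02), RPA2 (−0.20), HELLS (−0.25) and GINS3 (−0.36).

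CDCA7 fell farthest (2: 173354820 to 173368997, plus strand, GRCh38). It stood at 111 and 95.6 CPM in sgNC, 42.3 and 35.6 in sgDual2 and 48.3 and 38.3 in sgDual3, whereas the 8 sgP1 and sgP2 libraries ran from 79.6 to 104 CPM. No sgDual library overlapped with any other library of the line. The log2 fold change was −1.33 ± 0.12 (edgeR's quasi-likelihood test, adjusted p = 1.64e-06), while HELLS, whose product works with that of CDCA7, stood at 47.6 and 43.0 CPM in sgNC, 35.6 and 33.1 in sgDual2 and 44.1 and 39.3 in sgDual3.

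**Figure D3:**
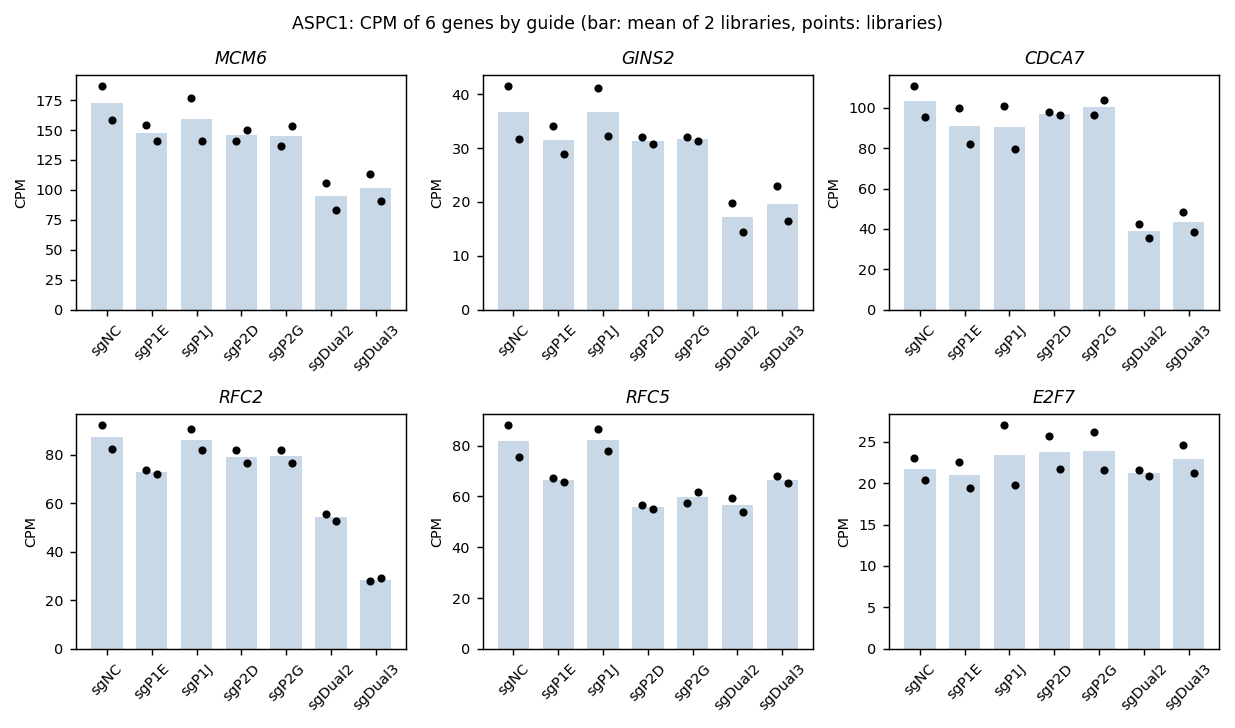
Levels (CPM) of MCM6, GINS2, CDCA7, RFC2, RFC5 and E2F7 in the 14 ASPC1 libraries by guide, each point a library and each bar the mean of the 2 libraries of a guide. CDCA7, GINS2 and MCM6 are lower with both sgDual guides than with any other guide, RFC2 is lowest with sgDual3, RFC5 is also low with the sgP2 guides, and E2F7 is at a similar height throughout.

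Every licensing and MCM2-7 gene fell with sgDual in ASPC1. CDC6 went from 103 and 84.0 CPM in sgNC to 54.8 and 42.6 in sgDual2 and 62.7 and 52.4 in sgDual3 (−0.82 ± 0.15), and CDT1 from 71.9 and 58.4 to 38.3 and 35.4 and to 42.7 and 37.0 (−0.76 ± 0.12). MCM6 was at 187 and 158 CPM in sgNC, 106 and 83.1 in sgDual2 and 113 and 90.3 in sgDual3, a log2 fold change of −0.81 ± 0.12 (edgeR's quasi-likelihood test, adjusted p = 0.000137). MCM7 (−0.82 ± 0.09), MCM5 (−0.77) and MCM2 (−0.68 ± 0.11) were close to it. MCM2 stood at 182 and 157 CPM in sgNC, 104 and 89.5 in sgDual2 and 126 and 105 in sgDual3, and its sgP1 and sgP2 libraries, at 155 to 198 CPM, lay around the controls.

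Among the helicase activators, GINS2 went from 41.6 and 31.7 CPM in sgNC to 19.8 and 14.5 in sgDual2 and 22.9 and 16.5 in sgDual3 (−0.99 ± 0.16, edgeR's quasi-likelihood test, adjusted p = 0.000329). MCM10, which stabilises the active helicase, was at 86.8 and 63.9 CPM against 41.2 and 32.4 and 44.4 and 34.8 (−0.98 ± 0.17), and CDC45 at 38.8 and 33.0 against 21.1 and 17.9 and 23.9 and 19.3 (−0.80). The control libraries of GINS2 and MCM10 themselves differed by more than the sgDual guides did. GINS3 was at 16.3 and 11.9 CPM in sgNC, 10.3 and 8.29 in sgDual2 and 14.6 and 10.8 in sgDual3, so that the control and sgDual3 libraries overlapped.

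POLE2 went from 18.7 and 16.5 CPM to 9.44 and 8.7 in sgDual2 and 11.5 and 9.58 in sgDual3 (−0.85 ± 0.11, edgeR's quasi-likelihood test, adjusted p = 4.49e-05), and POLA1 from 40.2 and 37.2 to 26.5 and 28.0 and to 31.6 and 27.8 (−0.44 ± 0.09). The clamp loader subunit RFC4 was at 48.9 and 43.6 CPM against 26.5 and 23.8 and 28.6 and 25.3 (−0.83 ± 0.08), PCNA at 274 and 235 against 176 and 150 and 198 and 164 (−0.56 ± 0.10), and FEN1 at 122 and 102 against 75.9 and 64.4 and 83.8 and 69.1 (−0.61 ± 0.11). Apart from POLA1, whose sgP1 and sgP2 libraries reached down to 29 CPM, the sgDual libraries of these genes lay below all 10 others.

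RRM2 was at 371 and 260 CPM in sgNC, 200 and 165 in sgDual2 and 224 and 172 in sgDual3 (−0.73 ± 0.20), and TYMS at 159 and 142 against 90.1 and 85.2 and 112 and 97.3 (−0.65 ± 0.09, edgeR's quasi-likelihood test, adjusted p = 9.56e-05). UHRF1 was at 131 and 99.1 CPM against 72.3 and 56.7 and 78.0 and 60.8 (−0.78 ± 0.16), and CHAF1B at 24.6 and 21.1 against 15.7 and 12.9 and 17.6 and 14.8 (−0.58). CLSPN, which relays the checkpoint signal at stalled forks, was at 58.5 and 42.3 CPM against 30.0 and 23.2 and 35.0 and 28.5 (−0.79 ± 0.20). Of the E2F factors, E2F2 went from 29.4 and 23.6 CPM to 14.1 and 13.4 and to 16.1 and 13.7 (−0.89 ± 0.13), E2F1 from 70.8 and 58.9 to 51.8 and 42.8 and to 53.9 and 44.8 (−0.42 ± 0.11), and E2F7 was at 23.0 and 20.4 against 21.6 and 20.8 and 24.6 and 21.2. Without sgNC replicate 1, 14 of the 50 calls were lost, among them UHRF1 (−0.57), CLSPN (−0.54), RRM2 (−0.45) and E2F1 (−0.28), and without guide sgDual2 8 were lost, among them CLSPN (−0.66) and RRM2 (−0.66).

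RFC2 separated the sgDual guides from each other. It stood at 92.3 and 82.5 CPM in sgNC, 72.1 to 90.5 in the sgP1 and sgP2 libraries, 55.6 and 52.9 in sgDual2 and 27.8 and 29.1 in sgDual3, with no overlap between the 3 levels. In a fit coded by guide, sgDual2 exceeded sgDual3 by 0.93 ± 0.08 on the log2 scale (edgeR's quasi-likelihood test, adjusted p = 3.01e-05), and RFC2 was the only 1 of the 54 genes called between these guides, where 0.883% of all genes were called in either direction. The log2 fold change against sgNC was −0.69 for sgDual2 and −1.62 for sgDual3. The expressed neighbours LIMK1 (−0.08), EIF4H (−0.05), LAT2 (−0.31), CLIP2 (0.01) and GTF2IRD1 (0.00), all within 200000 bases, did not pass the threshold between the guides. Of the 54 differences 53 were negative, so every other gene was lower in value with sgDual2, with a median of −0.13 over the 54, and 9 had an unadjusted p under 0.05. The matching shares over all genes are not given here, so these counts describe the 54 genes only. With only the sgDual and sgNC libraries fitted, the call of RFC2 against sgNC was lost (−1.08).

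Against sgNC, sgDual2 alone called 53 genes lower and sgDual3 alone 45, where 18.2% and 18.4% of all genes were called lower, with medians of −0.67 and −0.55. CDCA7 was at −1.41 and −1.26, GINS2 at −1.09 and −0.90, MCM10 at −1.03 and −0.93 and E2F2 at −0.95 and −0.83 for sgDual2 and sgDual3. HELLS (−0.40 and −0.12) and GINS3 (−0.60 and −0.15) differed more between the guides in value, without passing the threshold for the difference. These guides share the sgNC libraries.

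Guides against 1 promoter left the 54 genes near the controls. With sgP1, 0 genes passed the threshold in edgeR's quasi-likelihood test (0.265% of all genes did in either direction), 1 had an unadjusted p under 0.05, DESeq2 called 0, and the median was −0.09. With sgP2, 2 genes fell (1.76% of all genes were called lower), 6 had an unadjusted p under 0.05, and the median was −0.11. The shares of all genes with an unadjusted p under 0.05 are not given here, so those counts describe the 54 genes only. The clamp loader subunit RFC5 (12: 118013588 to 118033130, plus strand, GRCh38, overlapped on the other strand by WSB2 and AC131159.2) was at 88.1 and 75.4 CPM in sgNC, 56.5 and 55.2 in sgP2D, 57.6 and 61.9 in sgP2G, 67.1 and 65.6 in sgP1E and 86.4 and 77.7 in sgP1J. The sgP2 libraries lay below both controls and below all 4 sgP1 libraries. RFC5 had a log2 fold change of −0.50 ± 0.11 against sgNC (adjusted p = 0.0265) and −0.36 ± 0.09 against sgP1 (adjusted p = 0.0436), the only gene of the 54 called between sgP2 and sgP1, where 2.13% of all genes were called lower.

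TIMELESS was at 131 and 122 CPM in sgNC, 97.6 and 102 in sgP2D and 98.9 and 99.9 in sgP2G (−0.34 ± 0.09, edgeR's quasi-likelihood test, adjusted p = 0.0483). Its sgP2 libraries lay within a narrow band below both controls. The sgP1 libraries stood at 109 and 103 CPM in sgP1E and 126 and 107 in sgP1J, and all but that at 126 were also below both controls. TIMELESS was not called between sgP2 and sgP1. Without sgNC replicate 1, neither RFC5 (−0.39) nor TIMELESS (−0.30) was called against sgNC, and the same held without sgNC replicate 2 (−0.61 and −0.40), sgP2D replicate 1 (−0.49 and −0.33), sgP2D replicate 2 (−0.48 and −0.36) or sgP2G replicate 1 (−0.51 and −0.35), and for TIMELESS also without sgP2G replicate 2 (−0.35). The call of RFC5 against sgP1 was lost without either sgP1J library (−0.28 and −0.34) or any sgP2 library (−0.34 to −0.40).

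Between guides of the same target, RFC5 (−0.31 ± 0.09, edgeR's quasi-likelihood test, adjusted p = 0.0314) and PRIM1 (−0.39 ± 0.12, adjusted p = 0.0432) were lower with sgP1E than with sgP1J, 2 of 54 where 6.7% of all genes were called lower. PRIM1 was at 25.8 and 22.7 CPM in sgP1E, 32.9 and 30.8 in sgP1J and 35.7 and 29.2 in sgNC, so that the sgP1J and control libraries overlapped. Between sgP2D and sgP2G 0 of the 54 genes were called, where 1.69% of all genes were called in either direction. With sgP1E alone 2 genes were called against sgNC, and 0 with total count scaling. The share over all genes for that comparison and the count for sgP1J alone are not given here. With sgP2D alone 2 genes fell against sgNC and with sgP2G alone 3, where 4.06% and 3.85% of all genes did. RFC5 was among them for both, with log2 fold changes of −0.55 ± 0.09 for sgP2D and −0.45 ± 0.09 for sgP2G.

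Against the single-promoter guides, the sgDual libraries were lower in 50 genes relative to sgP1 (19.7% of all genes were called lower; median −0.55) and in 46 relative to sgP2 (23.5%; median −0.49). CDCA7 led both comparisons (−1.14 ± 0.10 and −1.26 ± 0.10), with RFC2 (−0.94 in both) and RFC4 (−0.90 ± 0.07 and −1.01 ± 0.07) next, in either order. RFC5 (0.09) and TIMELESS (0.02) did not differ detectably between sgDual and sgP2. These comparisons share the sgDual libraries.

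**Figure D4:**
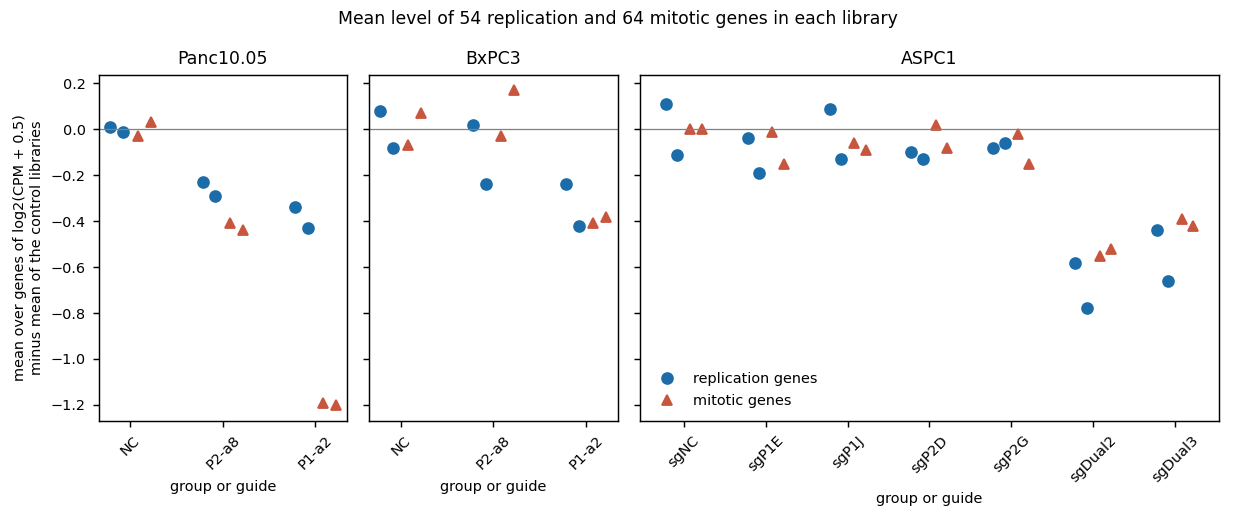
Mean over genes of log2(CPM + 0.5) minus the control mean, for each of the 26 libraries in 3 panels by line; circles are the 54 replication genes and triangles the 64 mitotic genes. In Panc10.05 P1-a2 the triangles lie far below the circles (−1.19 and −1.20 against −0.34 and −0.43), whereas in ASPC1 sgDual3 the circles (−0.44 and −0.66) lie at or below the triangles (−0.39 and −0.42).

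The replication genes were set beside 64 mitotic genes library by library. In Panc10.05 the mean log2 level of the 54 genes relative to the control mean was −0.34 and −0.43 in the P1-a2 libraries and −0.23 and −0.29 in P2-a8, with the controls at 0.01 and −0.01. The mitotic genes lay at −1.19 and −1.20 in P1-a2 and −0.41 and −0.44 in P2-a8, and 63 of 64 fell with P1-a2 (median −1.27) and 53 with P2-a8 (median −0.48). In BxPC3 P1-a2 the lists were alike, at −0.24 and −0.42 for replication and −0.41 and −0.38 for mitosis, with 44 of 64 mitotic genes called lower (median −0.40). In ASPC1 the replication genes lay at −0.58 and −0.78 in sgDual2 and at −0.44 and −0.66 in sgDual3. The mitotic genes lay at −0.55 and −0.52 and at −0.39 and −0.42, with 54 of 64 called lower (median −0.51). Relative to the mean of both controls, the lists were thus close in the libraries of replicate 1, and the replication genes were lower in those of replicate 2. The sgNC libraries themselves stood at 0.11 and −0.11 for the replication genes and at 0.0 for the mitotic genes. The contrast between replicates therefore cannot be told apart from that split of the controls. The difference between the lists was not tested.

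The library of replicate 1 lay above that of replicate 2 for the replication genes in all 3 Panc10.05 groups, all 3 BxPC3 groups and 6 of 7 ASPC1 guides. In BxPC3 this spread (0.02 and −0.24 in P2-a8, 0.08 and −0.08 in NC) was of the size of the P2-a8 effect. The controls of ASPC1 were at 0.11 and −0.11, so that replicate 1 and replicate 2 of sgNC differed by less than any sgDual library lay below their mean. The mitotic genes of sgNC did not show the split, at 0.0 for both libraries. What the replicate numbers stand for is not given in the labels.

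**Figure D5:**
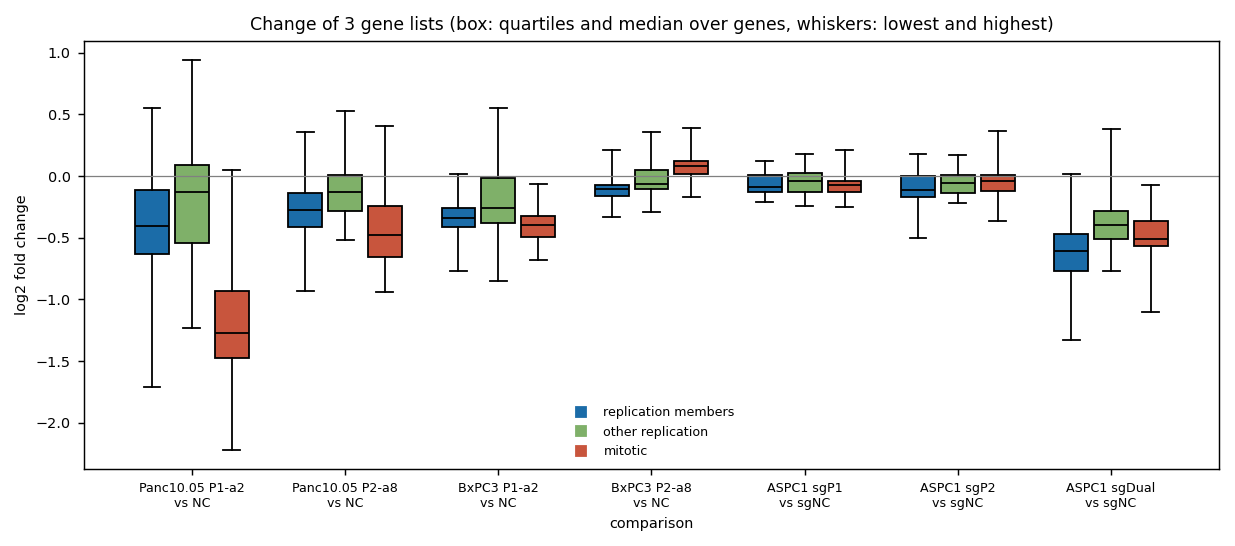
Log2 fold changes of the 54 replication genes, 30 other replication genes and 64 mitotic genes in 7 comparisons with the control of the same line; boxes span the quartiles with the median inside and whiskers reach the lowest and highest gene. The median of the 54 genes is −0.40 in Panc10.05 P1-a2 and −0.61 in ASPC1 sgDual, and that of the mitotic genes −1.27 and −0.51.

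Other genes around replication, from lists that do not overlap with the 54, are counted against the shares of all genes called lower and higher, which were 30.5% and 31.5% in Panc10.05 P1-a2, 14.9% and 17.1% in BxPC3 P1-a2 and 17.8% each in ASPC1 sgDual. Of 30 further replication genes 12 fell and 7 rose with P1-a2 in Panc10.05 (median −0.13), with RECQL4, a helicase needed for helicase activation, at −1.23 and the small polymerase subunits POLE4 and POLD4 at 0.94 and 0.67. In BxPC3 P1-a2 15 fell and 3 rose (−0.26), again with RECQL4 (−0.57) lower and POLD4 (0.55) and POLE4 (0.40) higher. RECQL4 did not lead there, as MTBP of the same list was lower by a larger factor. MTBP stood at 16.6 and 17.6 CPM in NC and 9.41 and 9.6 CPM in P1-a2. In ASPC1 sgDual 22 fell and 1 rose (−0.39), led by the nuclease DNA2 (−0.77) and DBF4 (−0.60), the activator of the kinase that fires origins. POLD4 and POLE4 were thus higher in P1-a2 of both induced lines.

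Of 17 genes for S phase cyclins, pocket proteins and other E2F factors, 10 fell and 4 rose with P1-a2 in Panc10.05, led by MYBL2 (−2.35) and cyclin A2, CCNA2 (−1.81), with E2F4 (1.08) and E2F6 (0.50), which act mainly as repressors, higher. In BxPC3 P1-a2 7 fell, CCNA2 among them (−0.48), and cyclin E1, CCNE1, rose (0.40). In ASPC1 sgDual 11 fell, led by TFDP2 (−1.49), a dimer partner of E2F factors, and the phosphatase CDC25A (−0.98), and RBL2 rose (0.28). Of 15 further nucleotide genes 6 fell and 3 rose with P1-a2 in Panc10.05, with SAMHD1, which degrades nucleotides, at −1.66 and DHODH at 0.68, and 12 fell and 1 rose in ASPC1 sgDual, with CTPS1, which makes cytidine triphosphate, at −0.68. Of 17 checkpoint genes 13 fell and 3 rose with P1-a2 in Panc10.05 (FANCD2 −0.78, RAD17 0.64), 9 fell and 0 rose in BxPC3 P1-a2, and 11 fell and 0 rose in ASPC1 sgDual (CHEK1 −0.79).

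Across the lines, 22 of the 54 genes (40.7%) were called lower in all of Panc10.05 P1-a2, BxPC3 P1-a2 and ASPC1 sgDual, each against its own control, compared with 291 of 14523 genes tested in every line (2.0%) and 39 of 64 mitotic genes. They were ASF1B, CHAF1A, CHAF1B, DNMT1, E2F1, E2F2, E2F8, GINS1, GMNN, LIG1, MCM7, PCNA, POLD1, POLE, POLE2, PRIM2, RFC4, RFC5, RRM1, TIMELESS, TK1 and UHRF1. HNF4A was raised in the first pair of these settings and lowered in the third. These 22 are among 40, 28 and 50 genes called lower in the respective lines. In BxPC3, 15 of the 22 lost their call without NC replicate 1, which leaves 7, and 13 lost it without P1-a2 replicate 2, which leaves 9. In both Panc10.05 P1-a2 and sgDual 38 genes were lower (70.4%), 38 of the 40 and 38 of the 50, where 6.04% of all genes were lower in both. In the opposite pattern, CDC6, RFC2, RRM2 and TIPIN rose with P1-a2 in Panc10.05 and fell with sgDual, which is 4 of the 5 that rose and 4 of the 50 that fell, 7.41% of the 54 genes and 7.43% of all genes. Without sgNC replicate 1 in ASPC1, RRM2 and TIPIN lost their call and 2 of the 4 were left.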

How the data were processed

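Gene counts per library, whole numbers with no normalization, were deposited by the authors in 1 table per line (62703, 62703 and 62754 identifiers). Per the submitters' processing notes, the tools were cutadapt 1.16, STAR 2.7.9a, featureCounts 1.6.3 and DESeq2 1.36.0 with build GRCh38, whose roles and settings are not given in the sources used here. Strand setting and annotation are likewise not given, although the labels' protocols name a directional kit. A table of Ensembl identifiers and symbols named 99.88%, 99.88% and 99.91% of the identifiers, and coordinates and exon lengths came from GENCODE release 29. No column belonged to an unlisted sample.

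Libraries were grouped by their genotype labels, with guide and replicate number from the titles. Each line was fitted separately with edgeR 4.0.16 (limma 3.58.1, R 4.3.3), using filterByExpr, TMM factors and a robust quasi-likelihood fit over all its libraries. Adjusted p-values (Benjamini-Hochberg) covered all 17247, 17635 or 16992 genes tested in Panc10.05, BxPC3 and ASPC1, with a threshold of 0.05. Guides were compared in a fit coded by guide, and the induced lines in a joint fit of 12 libraries and 19372 genes. Errors of log2 fold changes are standard errors. Replicate libraries differed from each other (chi-square per degree of freedom 5.08 to 24.07), so none was treated as a duplicate. Fits of each line were also run on simulated counts with known changes, whose outcome is not given here. Tables were made in Python 3.11.15 (pandas 2.3.3, numpy 2.4.6) and figures in matplotlib 3.10.9.

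The 54 genes and the compared lists were chosen with earlier results of these data known. Any of the 54 may be named. Values in every library are given for a panel of 17 genes with 1 or 2 per role and, in each comparison, for up to 3 called genes with the largest rise and the largest fall whose groups did not overlap and up to 3 called against the main direction, and genes of other lists are named by the same rule with up to 2 per direction. Individual genes beyond these (such as MCM7, TIMELESS, GINS3 and HELLS in ASPC1) were chosen after their values were seen. Alternatives were DESeq2 1.42.0, RLE and total count scaling, no filter on low counts, a fit of both groups only, a replicate block, a fold limit of 1.5, and leaving out each library or guide.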

Additional observations from a re-analysis of the deposited data

Results flagged for a closer look

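In ASPC1, UHRF1 stood at 102 CPM in sgP2D replicate 2 and at 117 to 120 CPM in the other 3 sgP2 libraries, a gap of 0.835 of the range, past Dixon's critical value for 4 samples. It was 1 of 66 gene and group values examined, and chance alone passes about 1 in 20.

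The effect of induction differed between Panc10.05 and BxPC3, by an interaction term in edgeR's quasi-likelihood test, in 16 of the 54 genes for P1-a2 against control, 15 for P2-a8 against control and 11 for P1-a2 against P2-a8. Over all genes, 20.1% were called lower and 16.3% higher in the first, 11.9% and 11.5% in the second and 13.5% and 8.81% in the third. Such differences were thus common among all genes as well. For P1-a2 against control the difference in log2 fold change, Panc10.05 minus BxPC3, was −0.96 for E2F2, −0.82 for ASF1B, −0.46 for UHRF1, 0.36 for TYMS, 0.49 for RFC2, 0.51 for CDT1, 0.59 for CDC6, 0.66 for CDCA7 and 0.97 for HELLS. For P2-a8 against control it was −0.74 for ASF1B, −0.57 for POLE2, −0.45 for GINS3, −0.44 for UHRF1, −0.35 for TYMS and 0.36 for CDT1. For P1-a2 against P2-a8 it was 0.49 for CHAF1B, 0.57 for RFC2, 0.71 for TYMS and 0.73 for HELLS. Line, sequencing project, control construct and dose change together in all of these.

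Guides of the same target also differed in ASPC1. PRIM1 (−0.39) and RFC5 (−0.31) were lower with sgP1E than with sgP1J, and RFC2 was higher with sgDual2 than with sgDual3 (0.93).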

How the results depend on the processing

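Of 312 calls of single genes followed through every alternative but the fold limit, 208 kept direction and call in all of them, 104 lost the call in at least 1 and 0 reversed. DESeq2 ended 12 of them, RLE scaling 2, total count scaling 4, no filter on low counts 6, a fit of both groups only 6 and the replicate block 1. Scaling moved the median of all genes by at most 0.03. Counts of the 54 genes called moved by more than 1.5 times as follows, and the cause was not tested except that a fold limit admits fewer genes by construction and leaving out a library leaves fewer samples. With a fold of at least 1.5 required, Panc10.05 gave 17 genes for P1-a2 and 4 for P2-a8 relative to NC, and 3 between the isoforms (45, 42 and 31 without it), BxPC3 gave 3 for P1-a2 relative to NC and 1 between the isoforms (28 and 17), and ASPC1 gave 29 for sgDual against sgNC, 21 against sgP1 and 20 against sgP2 (50, 50 and 46), 0 for sgP2 against sgNC (2) and 0 for sgP2 against sgP1 (1). With the replicate number as a block, BxPC3 gave 48 for P1-a2 and 12 for P2-a8 relative to NC, and 35 between the isoforms (28, 0 and 17 without it). Deviations of libraries of the same number correlated at −0.012 to 0.007 in Panc10.05, 0.073 to 0.131 in BxPC3 and 0.077 to 0.339 in ASPC1. The labels do not say what the numbers stand for and not every pair passed 0.1 in any line, so the numbers were not taken to pair libraries and the main fits carry no block. Without the filter on low counts, BxPC3 gave 5 for P2-a8 relative to NC (0 with it) and 33 between the isoforms (17), sgP1E against sgP1J gave 6 (2), and the difference between lines in P2-a8 against NC gave 23 (15). With total count scaling, 1 gene was called for sgP2 against sgNC (2), 0 for sgP1E against sgNC (2) and 1 for sgP1E against sgP1J (2), and with only both groups fitted 0 for sgP2 against sgP1 (1). Without guide sgP2D or sgP2G 0 genes were called for sgP2 against sgNC, and for sgP2 against sgP1 3 were called without sgP1E and 0 without sgP1J, sgP2D or sgP2G. Leaving out 1 library at a time gave 40 to 44, 33 to 40 and 17 to 28 in the comparisons of Panc10.05 in the order above, 9 to 26, 0 to 6 and 3 to 28 in those of BxPC3, and in ASPC1 0 to 0 for sgP1 and 0 to 1 for sgP2 against sgNC, 36 to 53 for sgDual against sgNC, 0 to 1 for sgP2 against sgP1, 48 to 52 for sgDual against sgP1 and 45 to 48 against sgP2. Depth limits E2F2, DSCC1 and TIPIN most, with lowest counts of 100, 222 and 218 in Panc10.05, BxPC3 and ASPC1.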
